A study of Mus musculus with 2 samples.

Results

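The miR-148 family is a group of 3 microRNA (miRNA) genes, Mir148a, Mir148b and Mir152, whose main mature products share a seed, the short stretch at the 5′ end that pairs with target mRNAs. Its members were selected by their gene symbols in the GENCODE M21 annotation, and all 3 of them were found among the 2202 miRNA genes of each count table. The family was picked with the levels and the replicate ratios of these libraries already known, so those values are given as a description and without a test. Small RNA of the adrenal gland was sequenced by microRNA-seq in 14-day-old males of B6CASTF1/J, an F1 hybrid mouse strain. There was 1 group of 2 libraries, biological replicates 2 and 1, with no treatment, no mutation and no control group. Each library is from a biosample that names 3 males, both biosamples point to 1 donor record, and the labels do not say whether a library pools animals.

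A miRNA is cut from a hairpin precursor and guides an Argonaute protein to mRNAs that match its seed, which lowers the translation and stability of those mRNAs. Members of a seed family are expected from their seed to recognise overlapping sets of mRNAs. The miR-148 family is known for targeting the maintenance DNA methyltransferase Dnmt1, and miR-148a in the liver for targeting the cholesterol exporter Abca1. The adrenal cortex takes up and uses cholesterol to make steroid hormones, and the medulla makes catecholamines. No mRNA was measured here.

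The mature sequences are shown because they hold both what makes the 3 genes a family and what lets their reads be told apart. They are from RefSeq on build GRCm38.p6, written 5′ to 3′, with the seed (bases 2 to 8) in capitals.
miR-148a-3p: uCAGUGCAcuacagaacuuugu
miR-148b-3p: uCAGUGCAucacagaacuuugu
miR-152-3p: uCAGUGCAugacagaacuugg
All of the 3 carry the seed CAGUGCA, and no other of the 1679 mature miRNA names in the RefSeq table does. Behind the seed they differ in few bases. Counted from 1 at the 5′ end of miR-148a-3p, the substitutions to miR-148b-3p are C9U and U10C, and 20 of 22 bases are the same. Those from miR-148a-3p to miR-152-3p are C9U, U10G and U20G, with 18 of 21 compared bases the same, and miR-152-3p is 1 base shorter, 21 against 22. From miR-148b-3p to miR-152-3p they are C10G and U20G. Base 10 differs among all of the 3 mature miRNAs, so a read that spans it carries the information on its gene.

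The opposite arms show how the family divides on the other strand of the hairpin, again with bases 2 to 8 in capitals.
miR-148a-5p: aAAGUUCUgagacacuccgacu
miR-148b-5p: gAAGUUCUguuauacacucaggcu
miR-152-5p: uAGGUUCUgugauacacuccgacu
On this arm miR-148a-5p and miR-148b-5p share AAGUUCU and miR-152-5p has AGGUUCU, so the seed that unites all of the 3 genes lies on the 3p arm. The deposited counts are per hairpin and do not separate the arms. A level below is therefore the sum of both arms of a gene.

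The hairpins themselves are given with both mature miRNAs in capitals, since they are the features over which reads were counted.
Mir148a hairpin: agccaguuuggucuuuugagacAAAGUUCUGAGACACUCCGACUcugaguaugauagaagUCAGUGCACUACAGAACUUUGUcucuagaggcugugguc
Mir152 hairpin: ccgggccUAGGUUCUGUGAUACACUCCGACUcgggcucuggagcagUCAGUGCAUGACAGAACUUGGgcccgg
Mir148b hairpin: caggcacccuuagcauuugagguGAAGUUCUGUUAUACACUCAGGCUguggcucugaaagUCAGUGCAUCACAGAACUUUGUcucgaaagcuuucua
The Mir152 hairpin is the shortest, at 73 bases, against 99 for Mir148a and 97 for Mir148b. It also has the highest GC content, 61.6% against 45.5% for Mir148a and 45.4% for Mir148b. The loop between the mature miRNAs is 16 bases in Mir148a, 15 in Mir152 and 13 in Mir148b. Multimapping reads were assigned to no gene, so sequence shared with another gene could lower a count. Against the other 2201 miRNA genes, the longest stretch that Mir148a and Mir148b share is 15 bases and is with each other. That of Mir152 is 13 bases, with Mir3473f. These stretches are shorter than any of the 3p miRNAs. The search covered exact matches to miRNA genes alone. It cannot show whether reads were lost to other places in the genome or to matches with mismatches.

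**Figure D1:**
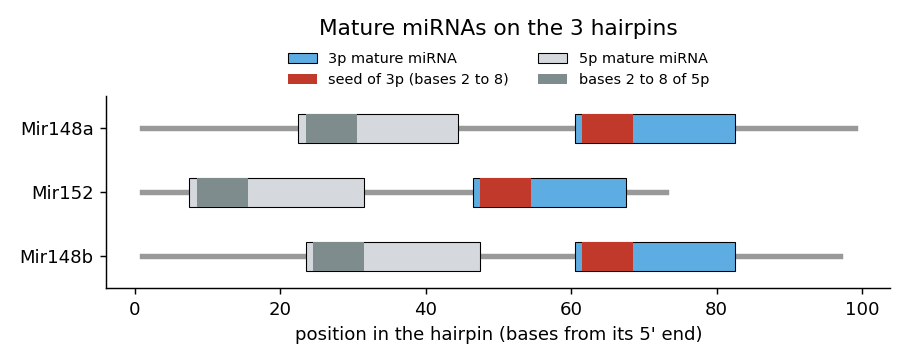
Position in bases from the 5′ end of each hairpin (x axis) for Mir148a, Mir152 and Mir148b. Boxes are the 5p and 3p mature miRNAs and the dark parts their bases 2 to 8; the Mir152 hairpin is 73 bases long, against 99 and 97 for the others.

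The 3 genes lie on 3 chromosomes and are not clustered with one another. Mir148a is on chromosome 6 from 51269812 to 51269910 on the minus strand of mm10, in no annotated gene. The nearest protein-coding gene, the transcription factor gene Nfe2l3, is 162759 bases away. Mir152 is on chromosome 11 from 96850393 to 96850465 on the plus strand, in intron 1 of Copz2. Mir148b is on chromosome 15 from 103285125 to 103285221 on the plus strand, in intron 1 of Copz1. Copz1 and Copz2 are paralogs that encode zeta subunits of the COPI coat, which carries cargo between the Golgi and the endoplasmic reticulum, and both miRNAs are on the strand of their host. The placement holds in 4 of 4 annotated transcripts of Copz1 and 3 of 5 of Copz2. The next annotated miRNA gene is 351721 bases from Mir148a, 213302 from Mir152 and 65233 from Mir148b.

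Replicate 2 held 8479789 reads with 3464837 sense counts in miRNA genes, and replicate 1 held 7170915 reads with 3024662. Multimapping reads made up 29.4% of replicate 2 and 27.5% of replicate 1, and none of them is in a gene count. Levels are CPM, the count of a gene scaled to a common total of the sense miRNA counts of its library. A read covers a whole mature miRNA of similar length in all 3 genes, so levels were compared between genes without division by length. Of the markers of the tissue, Mir375 of neuroendocrine cells, which the medulla holds, was at 29592 CPM in replicate 2 and 26615 CPM in replicate 1. No miRNA among the fixed markers defines the cortex. All intervals are exact 95% intervals for counting error alone; PCR copies of 1 molecule are counted as separate reads.

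Mir148a was the most abundant of the 3 genes in both libraries, Mir152 came next and Mir148b was lowest. Mir148a, which is known as an abundant miRNA of liver, had 7094 counts or 2047 CPM in replicate 2 (2000.1 to 2096) and 1657 counts or 548 CPM in replicate 1 (522 to 575). Its mean was 1298 ± 1060.4 CPM (SD, n = 2). The level in replicate 2 lay far above that in replicate 1, outside its counting interval. Mir152 had 2453 counts or 708 CPM in replicate 2 (680.2 to 737) and 731 counts or 242 CPM in replicate 1 (224 to 259.9). Its mean was 475 ± 329.7 CPM (SD, n = 2), and again replicate 2 was the higher library. Mir148b had 668 counts or 193 CPM in replicate 2 (178 to 208) and 354 counts or 117 CPM in replicate 1 (105 to 129.9). The mean of Mir148b was 155 ± 53.6 CPM (SD, n = 2). On the opposite strand all of the 3 genes had 0 counts in both libraries, and with unstranded counting each count was the same as in the sense column.

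**Figure D2:**
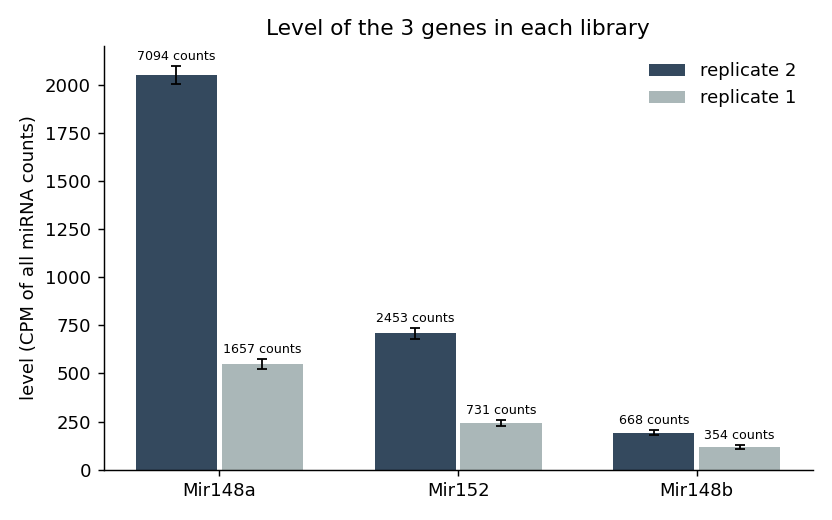
Level in CPM of all sense miRNA counts (y axis, from 0) of each gene in replicate 2 and replicate 1. Bars are single libraries, error bars exact 95% intervals for counting error; each gene is higher in replicate 2, and the order Mir148a, Mir152, Mir148b is the same in both.

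Within a library the order of the 3 genes was wider than counting error. Mir148a exceeded Mir152 by 2.89-fold in replicate 2 (2.76 to 3.03) and by 2.27-fold in replicate 1 (2.08 to 2.48). It exceeded Mir148b by 10.6-fold in replicate 2 (9.81 to 11.5) and by 4.68-fold in replicate 1 (4.17 to 5.26). Mir152 exceeded Mir148b by 3.67-fold in replicate 2 (3.37 to 4.01) and by 2.06-fold in replicate 1 (1.82 to 2.35). Across libraries the ranges of neighbouring genes overlapped for Mir148a and Mir152, since Mir152 in replicate 2, at 708 CPM, was above Mir148a in replicate 1, at 548 CPM. The range of Mir148b, 117 to 193 CPM, lay below that of Mir152, 242 to 708 CPM. No difference between levels was tested, because the smallest two-sided p that exact sign flips of 2 libraries allow is 0.5.

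The family held a small share of the adrenal miRNA counts, a total that leaves out multimapping reads. Its summed level was 2948 CPM in replicate 2 and 907 CPM in replicate 1, a mean of 1927 ± 1444 CPM (SD, n = 2). The family thus took 0.295% of the miRNA counts of replicate 2 (0.289 to 0.301), and 0.0907% of those of replicate 1 (0.0873 to 0.0941). The make-up of the family also differed between the libraries. In replicate 2 Mir148a made up 69.4% of the family counts (68.5 to 70.3), against 60.4% in replicate 1 (58.6 to 62.3). For Mir152 the share was 24.0% in replicate 2 (23.2 to 24.9), against 26.7% in replicate 1 (25.0 to 28.4). Mir148b took 6.54% in replicate 2 (6.07 to 7.04), against 12.9% in replicate 1 (11.7 to 14.2). Mir148a thus had the larger share in replicate 2 and Mir152 and Mir148b in replicate 1. The counting intervals of the 2 libraries did not overlap for any of the 3 genes, by a narrow margin for Mir152. Averaged over the libraries, the shares were 64.9% ± 6.38 for Mir148a, 25.3% ± 1.87 for Mir152 and 9.72% ± 4.50 for Mir148b (SD, n = 2).

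**Figure D3:**
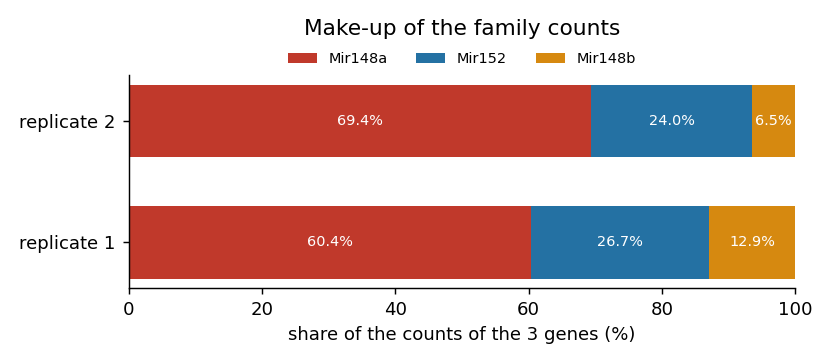
Share of the summed counts of the 3 genes in percent (x axis) held by each gene, in replicate 2 and replicate 1. Mir148a holds most of the family in both libraries, 69.4% in replicate 2 and 60.4% in replicate 1, and Mir148b holds 6.54% in replicate 2 and 12.9% in replicate 1.

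All of the 3 genes were higher in replicate 2, and the ratio was larger the more abundant the gene. Mir148a was 3.74-fold higher (3.54 to 3.94), Mir152 2.93-fold (2.70 to 3.19) and Mir148b 1.65-fold (1.45 to 1.88). The family sum was 3.25-fold higher (3.12 to 3.39). Among the 413 genes with 10 or more counts over both libraries, all of the 3 members included, 51.1% were higher in replicate 2 by any size. Of the same genes, 11.4% were higher by 2-fold or more, as were 2 of the 3 members, and 10.4% were lower by 2-fold or more, as was 0 of the 3. In either direction 21.8% differed by 2-fold or more. The median log2 ratio was 1.55 over the 3 members and 0.03 over the 413 genes. Of those genes, 16 had a larger ratio than Mir148a, 24 than Mir152 and 68 than Mir148b. The members were chosen with these ratios known, so nothing is read from these counts.

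**Figure D4:**
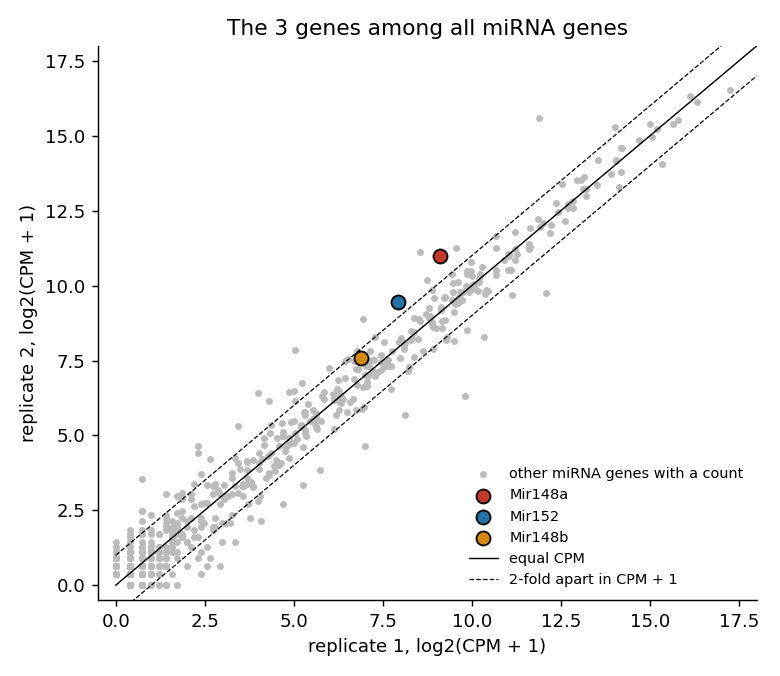
Level of each miRNA gene as log2(CPM + 1) in replicate 2 (y axis) against replicate 1 (x axis), with equal CPM as a solid line and a 2-fold difference in CPM + 1 as dashed lines. Mir148a and Mir152 lie above the upper dashed line, at ratios of 3.74 and 2.93, and Mir148b lies below it, at 1.65.

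In the order of mean level over all 2202 genes Mir148a was number 66, Mir152 number 114 and Mir148b number 164. The order leaves out multimapping reads, so genes that lose many such reads stand too low in it. The order moved with the library. Mir148a was number 56 in replicate 2 and number 109 in replicate 1, Mir152 number 100 in replicate 2 and number 145 in replicate 1, and Mir148b number 149 in replicate 2 and number 180 in replicate 1. All of the 3 thus stood higher in the order of replicate 2. The neighbours of Mir148a in the mean order were Mir301 at 1313 ± 1326 CPM and Mir674 at 1271 ± 109 CPM. Those of Mir152 were Mir467d at 476 ± 136 CPM and Mir221 at 475 ± 227 CPM. Those of Mir148b were Mir380 at 155 ± 48.1 CPM and mmu-mir-3535 at 151.8 ± 84.1 CPM (SD, n = 2 each). These neighbours were picked by their mean, so a mean close to that of the member was set by the choice. Within a library a neighbour could lie far from its member. Mir221 was at 314 CPM in replicate 2 and 635 CPM in replicate 1, against 708 and 242 CPM for Mir152. Over the 2 libraries, the ranges of 64, 59 and 48 genes overlapped those of Mir148a, Mir152 and Mir148b.

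By the distance between genes over log2(CPM + 1) in the 2 libraries, the genes nearest to Mir148a were Mir195a, Mir301 and Mir203, at distances of 0.51, 0.56 and 0.70. Mir195a, of the miR-15/16 seed family, was at 2421 CPM in replicate 2 and 751 CPM in replicate 1, 3.22-fold higher. Nearest to Mir152 were Mir299a, Mir300 and Mirlet7c-1, at 0.17, 0.73 and 0.82. Mir299a was at 631 CPM in replicate 2 and 246 CPM in replicate 1, 2.57-fold higher. Nearest to Mir148b were Mir380, Mirlet7f-1 and Mir329, at 0.06, 0.11 and 0.12. Of the genes named as nearest, Mir299a, Mir300, Mir380 and Mir329 belong to the imprinted Dlk1-Dio3 cluster. The share of that cluster among all genes of such levels was not counted, so nothing is read from this. A distance over 2 libraries describes level and ratio only.

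The family was set beside the miR-29 family, also known for DNA methyltransferase targets, and beside the miR-130 family. The summed level of the miR-148 family, 2948 CPM in replicate 2 and 907 CPM in replicate 1, compares with 1473 CPM in replicate 2 and 1580.0 CPM in replicate 1 for the miR-29 family. In these counts the miR-148 family was thus the more abundant of the pair in replicate 2 and the less abundant in replicate 1. Multimapping reads are left out, and sequence shared with other genes was searched for the miR-148 family alone. The miR-29 sum could therefore be too low, and the order of the 2 families holds for these counts only. Mir29a, the leading miR-29 gene, was at 1234 CPM in replicate 2 and 1173 CPM in replicate 1, a ratio of 1.05 (1.01 to 1.10). Mir29c was at 224 CPM in replicate 2 and 393 CPM in replicate 1, a ratio of 0.569 (0.519 to 0.624). Mir29b-1 and Mir29b-2 were between 6.28 and 8.08 CPM in both libraries. No miR-29 gene differed by 2-fold or more, and 2 of the 4 were higher in replicate 2. The difference between the families was not tested.

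The miR-130 family has a seed that overlaps that of the miR-148 family by 6 bases, shifted by 1 position, as its mature miRNAs show (bases 2 to 8 in capitals).
miR-130a-3p: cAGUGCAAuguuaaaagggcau
miR-130b-3p: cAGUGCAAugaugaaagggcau
miR-301a-3p: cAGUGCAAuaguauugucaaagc
The stretch AGUGCA is at bases 3 to 8 of the miR-148 family and at bases 2 to 7 here. Its summed level was 13593 CPM in replicate 2 and 6716 CPM in replicate 1, above that of the miR-148 family in both libraries. Mir130a was at 10820.4 CPM in replicate 2 and 5883 CPM in replicate 1, a ratio of 1.84 (1.81 to 1.87). Mir301, which makes miR-301a-3p, was at 2251 CPM in replicate 2 and 376 CPM in replicate 1, a ratio of 5.99 (5.63 to 6.38). It therefore stood next to Mir148a in level and above it in ratio. Mir130b was at 483 CPM in replicate 2 and 447 CPM in replicate 1, a ratio of 1.08 (1.00 to 1.16). Mir301b was at 38.4 CPM in replicate 2 and 9.92 CPM in replicate 1, a ratio of 3.87 (2.59 to 5.96). Mir130c and Mir721 had 0 counts in both libraries, which allows up to 0.866 CPM in replicate 2 and 0.992 CPM in replicate 1. Of the 4 members with counts, 4 were higher in replicate 2, 2 of them by 2-fold or more.

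Some markers of other tissues and of cell types differed between the same libraries, and others did not. Mir122 of hepatocytes was at 49475 CPM in replicate 2 and 3786 CPM in replicate 1, 13.1-fold higher. The gut and kidney epithelium markers summed to 345 CPM in replicate 2 and 83.6 CPM in replicate 1, and all of the 4 were above 2 CPM in both libraries. Their leading members Mir192 and Mir194-2 were 7.22-fold and 2.91-fold higher in replicate 2. The members with fewer counts were Mir194-1, at 2.60 CPM in replicate 2 and 2.31 CPM in replicate 1, and Mir215, at 3.75 CPM in replicate 2 and 12.6 CPM in replicate 1. Multimapping reads are left out, and sequence shared with other genes was not searched for any marker. A marker level could therefore be too low, and the few counts of Mir194-1 need not mean a low level. The pancreatic acinar markers were at or near 0. Mir216a had 0 counts in both libraries, Mir216b had 6 counts in replicate 2 and 0 in replicate 1, and Mir217 had 0 in replicate 2 and 5 in replicate 1. The 4 neuroendocrine markers summed to 34282 CPM in replicate 2 and 31136 CPM in replicate 1, with 2 of 4 higher in replicate 2. The white blood cell markers summed to 1710.3 CPM in replicate 2 and 3466 CPM in replicate 1, with 1 of 4 higher in replicate 2. The higher marker was Mir223, with a ratio of 2.88 (2.28 to 3.67). The red blood cell markers summed to 19202 CPM in replicate 2 and 43959 CPM in replicate 1, with 0 of 3 higher in replicate 2. Mir451a held 93.3% of the mean of that sum, with a ratio of 0.409. Mir486 had a ratio of 0.639 (0.475 to 0.857), on 82 counts in replicate 2 and 112 in replicate 1. The limit on shared sequence holds for Mir486 too. Mir144 was near level at 0.980 (0.948 to 1.01). Both sums of blood cell markers were thus lower in replicate 2, as was the endothelial Mir126a, at 94732 CPM against 155646 CPM in replicate 1. The hepatocyte marker and 2 of the 4 epithelial markers, Mir192 and Mir194-2, were thus clearly higher in the library in which the family was higher. Of the other epithelial markers, Mir215 went the other way, with a ratio of 0.299 (0.146 to 0.573). Mir194-1 had a ratio of 1.12 (0.372 to 3.55), an interval too wide to give a direction. The part of any of these markers in the ratios of the family was not tested. In bulk tissue, more cells of a type and more RNA per cell cannot be told apart.

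**Figure D5:**
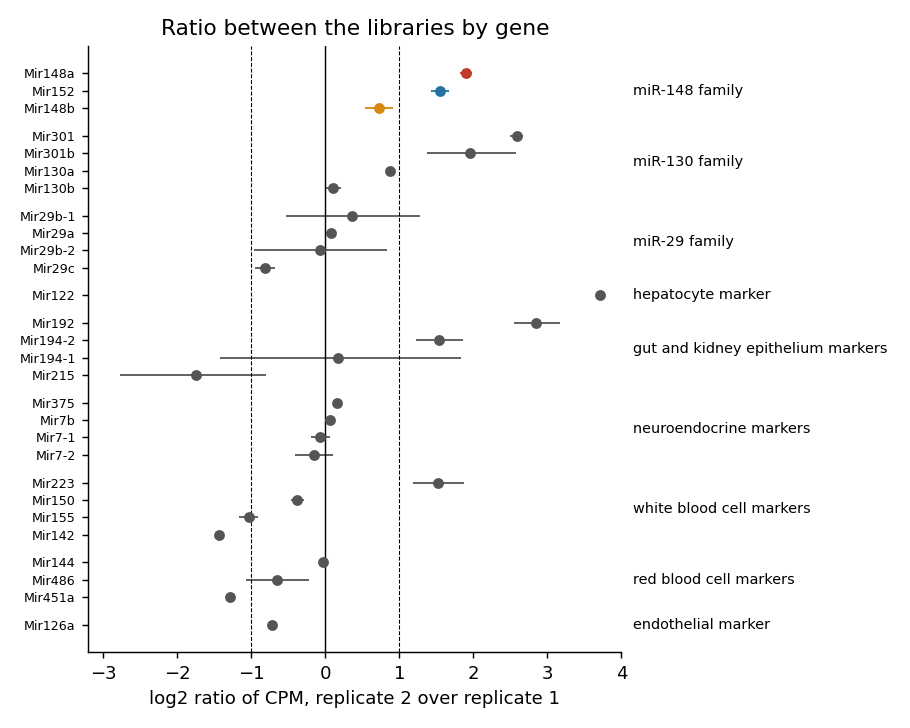
Log2 ratio of CPM in replicate 2 over replicate 1 (x axis) for each gene of the family, the compared families and the markers with 10 or more counts over both libraries, with exact 95% counting intervals. The dashed lines mark 2-fold; Mir148a at 1.90 and Mir152 at 1.55 lie beyond the upper line, Mir148b at 0.72 does not, and Mir122 is at 3.71.

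The match to the family seed was searched in the 3′ UTRs of 2 published targets, to show what the shared seed reads. The motif is TGCACTG, the reverse complement of the seed, on the mRNA strand alone, or TGCACTGA with the A that follows in an 8-base match. Windows of 29 bases are from GENCODE M21 transcripts, 5′ to 3′, with the match in capitals.
Dnmt1: cccagagccccacgTGCACTGAtgttttt
Abca1, first match: gcgaggtcttccttTGCACTGtgtcaagt
Abca1, second match: aatggatctattttTGCACTGgaatatct
Dnmt1, on the minus strand, has an 8-base match that starts at base 23 of a 3′ UTR of 312 bases, and its window is at chr9:20907484-20907512. Abca1, on the minus strand of chromosome 4, has 7-base matches that start at bases 54 and 2963 of its 3′ UTR, in windows at chr4:53033875-53033903 and chr4:53030966-53030994. Over 21037 genes with an annotated 3′ UTR, 13.4% hold the 7-base motif and 3.76% the 8-base motif. A match is a description of the sequence, and no binding or mRNA level was measured.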

How the data were processed

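MicroRNA-seq was made from adrenal glands in 2 libraries of 1 group. The authors deposited raw counts of reads for each miRNA gene, and their notes beside the files name mm10 and GENCODE M21. The authors' aligner and counter, not given in the sources used here, are left unnamed. Of the 3 count columns (unstranded, sense, antisense, as read from the values) the sense column was used. Left out of all totals were 4 summary rows without a gene, 59.1% of reads in replicate 2 and 57.8% in replicate 1. Genes were matched by identifier to GENCODE M21, and all 2202 matched. RefSeq sequences (GRCm38.p6) were matched by symbol for 3 of 3 genes. CPM is the count over the sense total, so 1 count is 0.289 CPM in replicate 2 and 0.331 in replicate 1.

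Intervals are exact Clopper-Pearson intervals for shares and exact conditional intervals for ratios, checked on simulated data. Detection means 2 CPM in both libraries. No test was made, since the labels give 1 group. Nothing says that the 2 libraries are from separate animals, so the SD may in part be technical. The members, lists and rules were chosen with earlier results of these data known. Named genes are the members, their hosts, the 3 genes nearest by distance over log2(CPM + 1), the neighbours in mean order, the compared lists and the markers. Alternatives were edgeR's TMM, DESeq2's size factors, a total without Mir122, unstranded counts, a count minimum and each library alone. Tools were edgeR 4.0.16 and DESeq2 1.42.0 in R 4.3.3, and SciPy 1.17.1, pandas 2.3.3, NumPy 2.4.6 and matplotlib 3.10.9 in Python 3.11.15. A further sequence match planned at the start is not reported here.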

Additional observations from a re-analysis of the deposited data

How the results depend on the processing

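The levels of the 3 genes, their sum and their shares moved by less than 1 SD under every alternative tried. For a single library against a mean of 2 this holds by construction. For the shares nothing tried could give another outcome, since unstranded and sense counts of the 3 genes are the same and a total cancels out. Each library alone gave 548 to 2047 CPM for Mir148a, 242 to 708 for Mir152, 117 to 193 for Mir148b and 907 to 2948 for the sum. With unstranded counts the mean was 1718 CPM for Mir148a, 631 CPM for Mir152, 208 CPM for Mir148b and 2558 CPM for the sum. Each was higher because reads over genes on both strands leave that total. For Mir148b the rise from 155 CPM fell only just short of its SD of 53.6 CPM. With 2 libraries so far apart, 1 SD is a loose limit. The change of total lowered by 0.14 the log2 ratio of genes whose unstranded and sense counts are the same, the 3 members among them. The log2 ratio of replicate 2 to replicate 1 became 1.77 for Mir148a, 1.42 for Mir152 and 1.57 for the sum, against 1.90, 1.55 and 1.70. Without Mir122 in the total the sum had a log2 ratio of 1.77. The other alternatives kept each ratio of the 3 genes and their sum within its counting interval, and none of these ratios changed direction. The share of genes differing by 2-fold or more was 14.8% among genes of 100 CPM or more and 26.3% among genes with a count in each library, against 21.8%. Depth does not limit the levels of the 3 genes, which had 354 counts or more in each library. The number of libraries does.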

Other observations

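The motif of the miR-130 family seed, TTGCACT, overlaps that of the miR-148 family seed, TGCACTG, by 6 bases, and a stretch TTGCACTG holds both. In the windows shown for the published targets, both matches in Abca1 also hold TTGCACT, and the match in Dnmt1 does not. Over the 21037 genes with an annotated 3′ UTR, 10.5% hold TTGCACT and 5.04% hold both motifs somewhere in their 3′ UTRs. Of the genes with TGCACTG, 37.7% also hold TTGCACT. These are counts of letters in annotated 3′ UTRs, and the overlap of the motifs sets part of them. The miR-130 family genes were together more abundant than the miR-148 family genes in both libraries, at 10154 ± 4863 CPM against 1927 ± 1444 CPM (SD, n = 2).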
